A study of Drosophila melanogaster with 6 samples.

Results

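The extracellular arm of the Toll pathway was described here at the level of mRNA in whole adult fruit flies, Drosophila melanogaster. It was taken as 9 genes chosen by name: the glucan-binding proteins GNBP1, GNBP2 and GNBP3, the serine proteases modSP, grass, psh and SPE, the ligand spz, and the serpin nec. Of these, 7 were read by a probe set that the annotation ties to no other gene, 1 each, among 11982 genes so measured. GNBP1 and modSP had no probe set named and were not analysed here. The flies of the cross carried the driver da-GAL4, in which the promoter of daughterless, a gene active in most tissues, drives the yeast activator GAL4, together with UAS-AMP, a transgene for an antimicrobial peptide under GAL4 control. The control flies came from the UAS-AMP line and carried no driver, so both groups had the transgene. The peptide is not named in the labels, and no flies with the driver alone were analysed here, so effects of the peptide, of the driver and of the driver stock's chromosomes cannot be told apart. Each group had 3 samples, each a pool of 25 male and 25 female adults of unstated age. The RNA of each sample went onto 1 array (Affymetrix Drosophila Genome 2.0), on which a probe set of short oligonucleotides reads each transcript. Separate cultures are not recorded, so the spread that p-values measure may be technical.

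Flies detect microbes in the haemolymph with secreted recognition proteins. GNBP3 binds the beta-glucans of fungal cell walls and GNBP1 acts with a peptidoglycan receptor on Gram-positive bacteria. Both signals pass through the modular protease modSP and the clip-domain protease grass, whereas the protease Persephone (psh) is set off by proteases of the microbes themselves. The branches meet at the Spätzle-processing enzyme SPE, which cuts the proprotein Spätzle (spz), and the cut form binds the receptor Toll. The serpin Necrotic (nec) holds the psh branch in check. Proteases of this kind are made as inactive zymogens, so the mRNA levels below are not measures of their activity. Fat body and haemocytes are the tissues best known for secreting these proteins.

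The signals of psh and GNBP2 were lower in the cross than in the control on every array, by 1.64-fold and 1.74-fold, and neither passed the test over all probe sets. Folds here are on the log2(signal + 1) scale, which understates changes of dim genes. GNBP3, nec and SPE were also lower on average, grass differed from its control mean by 0.0007 on the log2 scale, and spz was higher, with the groups overlapping for all 5. By limma on log2(signal + 1), with Benjamini-Hochberg adjustment over 18769 probe sets, 0 of the 7 genes were under an adjusted p of 0.05, and the share of all probe sets called was likewise 0%. At an unadjusted p under 0.05 there were 2 of the 7, psh and GNBP2, both lower, against 11.0% of all probe sets, or 8.16% counting those lower in the cross. The groups did not overlap for the same 2 genes, against 18.5% of all probe sets, or 12.8% counting those lower in the cross. Of the 7, 5 were lower and 2 higher, with a median log2 difference of -0.28, and of all 11982 genes 50.2% were lower, with a median of -0.002. Leaving out 1 array moved the median of the 7 between -0.38 (without control replicate 3) and -0.17 (without control replicate 2).

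**Figure D1:**
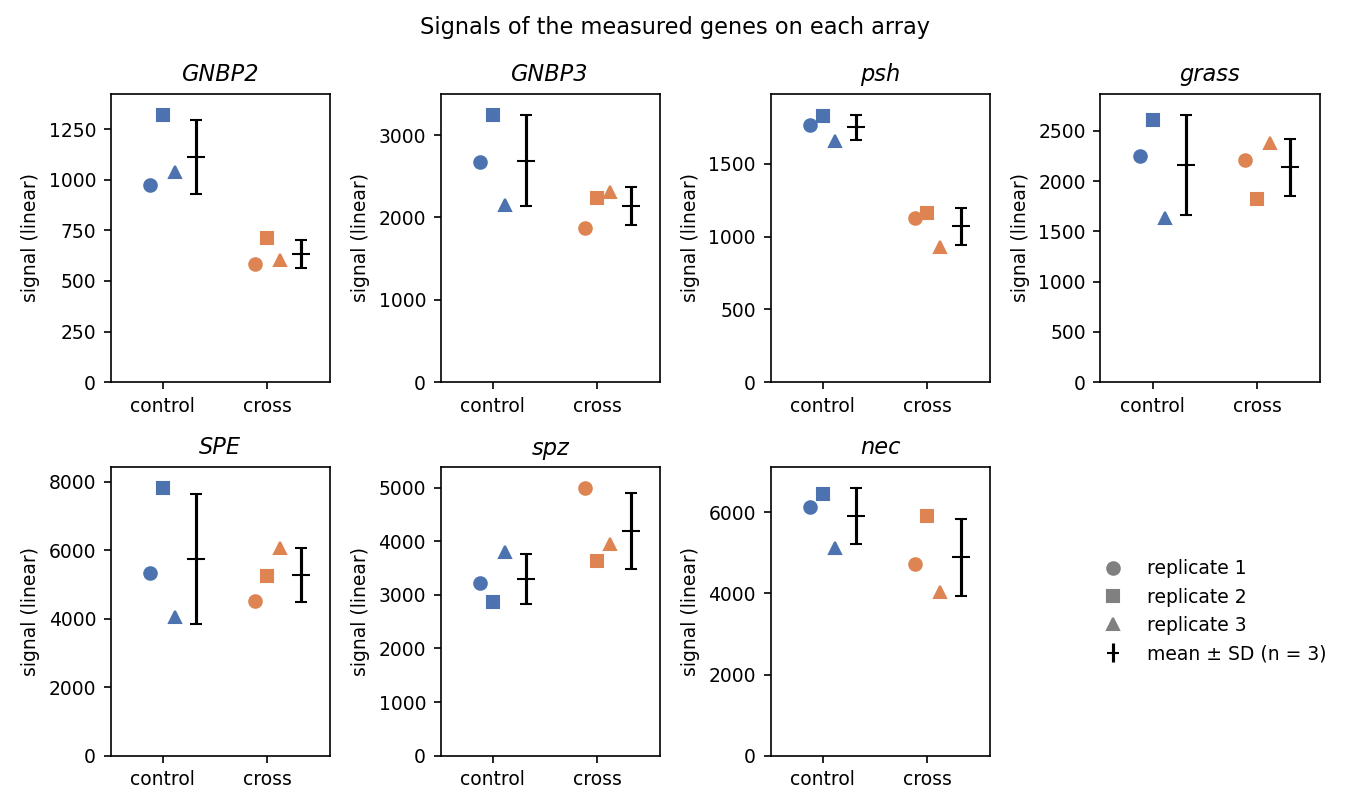
Signal of each measured gene, on a linear scale from 0, on the 3 control and 3 cross arrays. Symbols mark the replicate number, and bars the mean ± SD (n = 3). The cross arrays lie below all control arrays for GNBP2 and psh, and the groups overlap for the other 5 genes.

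Among the glucan-binding proteins, the probe set of GNBP2 (1631633_a_at) lay at the middle of the array's range, with a mean log2 signal above that of 49.8% of probe sets. Its signals in control replicates 1 to 3 were 973.6, 1320.9 and 1040.7, and in cross replicates 1 to 3 they were 582.3, 714.3 and 604.6. All cross arrays were lower than all control arrays, and the lowest control signal was 1.36 times the highest cross signal. The means were 1112 ± 184 in control flies and 634 ± 70.7 in the cross (SD, n = 3 each). The log2 difference was -0.80 ± 0.18 (SE), a 1.74-fold lower level with a 95% interval of 1.28-fold to 2.37-fold. The interval is for this gene alone and is not widened for the number of probe sets tested. The limma p was 0.00486 and the adjusted p 0.238, and over 13 other settings the adjusted p ranged from 0.0901 to 0.490. GNBP2 is a paralogue of the other 2 glucan-binding proteins, and its own ligand is less well defined.

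The fungal sensor GNBP3 (1635470_at) had signals of 2675.0, 3245.8 and 2148.8 on the control arrays and 1874.1, 2234.9 and 2308.3 on the cross arrays. The groups overlapped, since control replicate 3 lay below cross replicates 2 and 3. The means were 2690 ± 549 and 2139 ± 232 (SD, n = 3 each), with a log2 difference of -0.32 and a 95% interval of -0.82 to 0.19 (limma, adjusted p = 0.618). It was -0.17 without control replicate 2 and -0.47 without control replicate 3. The interval includes no difference and reaches a level 1.76-fold lower in the cross.

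Of the 3 measured proteases, psh (1636266_at) had the closest replicates in the control. Its control signals were 1768.1, 1826.6 and 1657.5, and its cross signals were 1130.6, 1160.1 and 926.7. The control arrays thus differed by 1.10 times from lowest to highest, the cross arrays by 1.25 times, and the lowest control array was 1.43 times the highest cross array. The means were 1751 ± 85.9 and 1073 ± 127 (SD, n = 3 each). The log2 difference was -0.71 ± 0.15 (SE), or 1.64-fold lower with a 95% interval of 1.27-fold to 2.11-fold. The limma p was 0.00346 and the adjusted p 0.216, and the adjusted p ranged from 0.0795 to 0.540 over 13 other settings. An exact permutation test over the 6 arrays gave p = 0.1 for psh and for GNBP2, 2-sided, which is the smallest value that 3 against 3 arrays allow.

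The gene next to psh in the genome is Hayan, a related clip-domain protease known for its part in melanization. Its signals were 859.7, 800.6 and 600.4 on the control arrays and 827.8, 770.0 and 768.4 on the cross arrays, with a log2 difference of 0.08 (95% interval -0.36 to 0.52). The cross arrays of Hayan lay within the range of its control arrays, and the difference between psh and Hayan was not tested. Over all protein-coding genes that lie directly beside one of the 9 genes and are not among them, 13 were measured. Of these, 5 were lower in the cross, 0 had an unadjusted limma p under 0.05, and 1 had groups that did not overlap, CG10254 beside SPE, which was higher in the cross.

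The clip-domain protease grass (1641496_a_at), which acts below modSP, had signals of 2252.8, 2607.8 and 1629.0 on the control arrays and 2205.6, 1823.4 and 2382.9 on the cross arrays. Every cross array lay inside the control range. The log2 difference was 0.0007 with a 95% interval of -0.56 to 0.57 (limma, adjusted p = 1.0), so levels from 1.48-fold lower to 1.48-fold higher lie within the interval. Its sign is not settled: it was -0.19 without control replicate 3, -0.03 without cross replicate 1 and -0.08 without cross replicate 3.

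The Spätzle-processing enzyme SPE (1634848_at), where the branches meet, had signals of 5346.3, 7806.3 and 4056.0 on the control arrays and 4504.2, 5247.5 and 6078.1 on the cross arrays. Its control arrays differed by 1.92 times, the widest control range of the 7 genes, and all cross arrays lay inside it. The means were 5736 ± 1905 and 5277 ± 787 (SD, n = 3 each). The log2 difference was -0.08 with a 95% interval of -0.78 to 0.62 (limma, adjusted p = 0.926). It was 0.17 without control replicate 2 and 0.03 without cross replicate 1, so this sign is not settled either.

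The ligand gene spz (1641068_a_at) was the 1 gene of the 7 with a higher mean signal in the cross. Its signals were 3213.0, 2875.7 and 3797.4 on the control arrays and 4986.5, 3632.5 and 3951.5 on the cross arrays. Cross replicate 2 lay below control replicate 3, so the groups overlapped, and the other 2 cross arrays were above all control arrays. The means were 3295 ± 466 and 4190 ± 708 (SD, n = 3 each). The log2 difference was 0.34 ± 0.19 (SE), a level 1.27-fold higher, with a 95% interval of -0.13 to 0.82 (limma, adjusted p = 0.571). It was 0.21 without cross replicate 1. The spz gene has many RefSeq transcripts, and 1 probe set cannot tell them apart.

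The serpin gene nec (1636653_at) had signals of 6121.1, 6450.3 and 5126.1 on the control arrays and 4724.2, 5900.7 and 4033.4 on the cross arrays. Cross replicate 2 lay above control replicate 3, and the other 2 cross arrays lay below all control arrays. The means were 5899 ± 689 and 4886 ± 944 (SD, n = 3 each), with a log2 difference of -0.28 and a 95% interval of -0.77 to 0.21 (limma, adjusted p = 0.637). It was -0.15 without cross replicate 3 and -0.43 without cross replicate 2. The mean of this inhibitor and that of psh, the protease whose branch it restrains, were thus both lower in the cross, and neither passed the test over all probe sets.

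**Figure D2:**
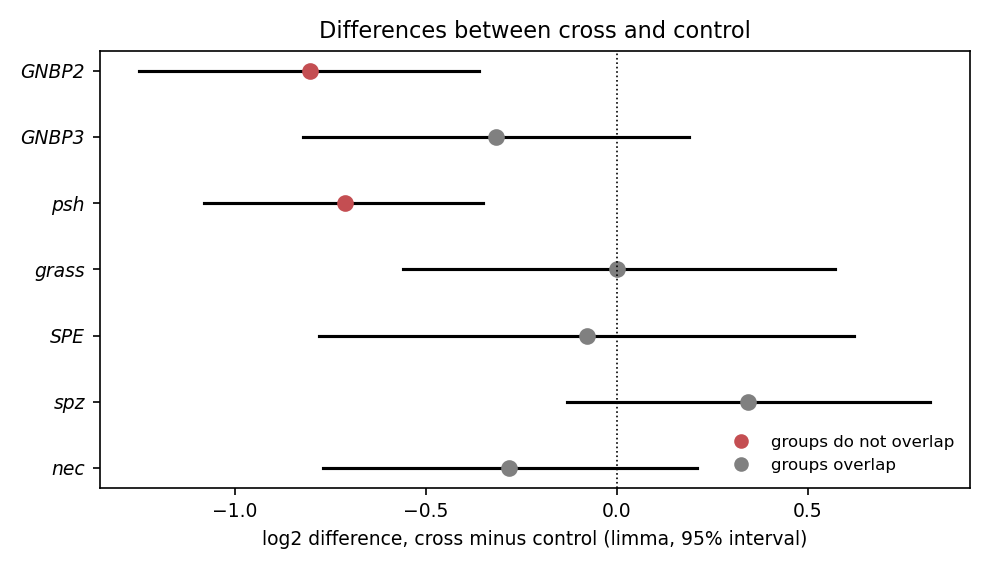
Log2 difference in signal, cross minus control, of each measured gene (point) with its 95% interval from limma (line). The intervals of GNBP2 (-1.25 to -0.36) and psh (-1.08 to -0.35) lie below 0, and those of the other 5 genes include 0. Intervals are not adjusted for the number of probe sets.

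Within the control group 5 of the 7 genes shared an order of arrays. Control replicate 2 was the highest of the 3 control arrays for 6 of the 7 genes (all but spz), and over all measured genes it was the highest for 27.4%. Control replicate 2 was highest and control replicate 3 lowest for 5 of the 7, GNBP3, psh, grass, SPE and nec, and for 18.3% of all measured genes. The ligand spz ran the other way, with control replicate 2 lowest and control replicate 3 highest. In the cross no array was the highest for more than 3 of the 7. This order was picked out after the values were seen and is given with no test.

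Across the 6 arrays, Pearson's r of log2 signals was 0.93 between GNBP2 and psh, 0.84 between GNBP3 and SPE and 0.80 between grass and SPE. It was -0.94 between spz and GNBP3 and -0.83 between spz and GNBP2. For psh it was 0.13 with SPE and -0.01 with grass. Each value rests on 6 arrays that share the group difference and the scaling, and serves as a description. Over all measured genes, those most like GNBP2 were E5 (r = 0.998), whose mean signal in the cross, 18.5, lay in the background range, the maltase gene Mal-A2 (r = 0.995) and Ktch (r = 0.993). Those most like psh were betaCOP (r = 0.996), a coat protein of Golgi vesicles, CG31689 (r = 0.994) and RhoGAP100F (r = 0.991). Among the 11982 measured genes, 86 had an r above 0.95 with GNBP2 and 144 with psh.

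**Figure D3:**
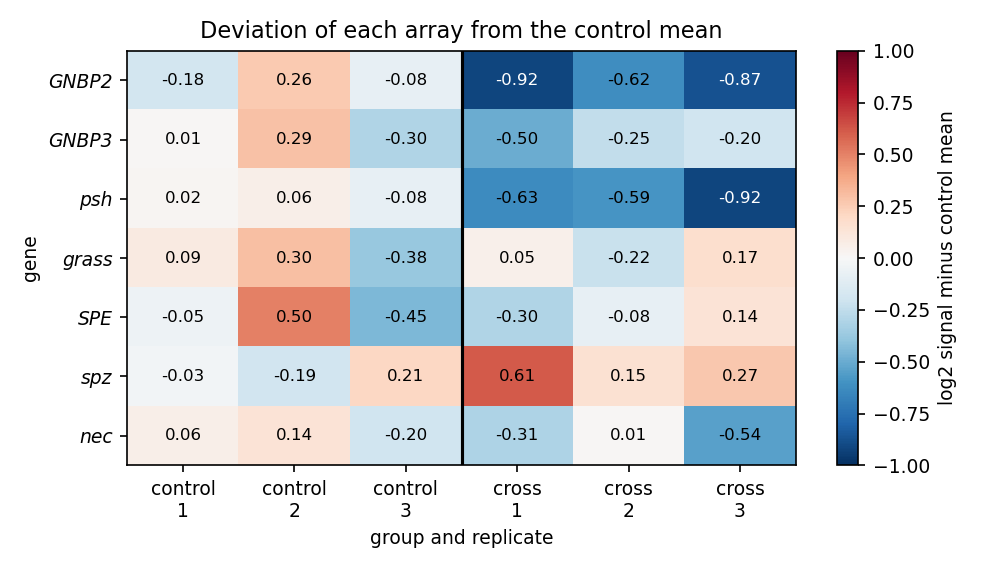
Log2 signal of each measured gene (rows) on each array (columns) minus the mean of the 3 control arrays, printed in each cell and coloured from -1 to 1. GNBP2 and psh are between -0.92 and -0.59 on every cross array, SPE spans 0.50 to -0.45 within the control, and spz is positive on all cross arrays.

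The other genes of the pathway were taken as lists. Over all 11982 measured genes, groups were apart for 1569 lower and 805 higher in the cross. Of 11 other clip-domain proteases 9 were measured, 2 lower and 7 higher in the cross, with a median log2 difference of 0.15. Groups were apart for 2 of the 9, both higher. None passed an adjusted p of 0.05 by limma, and 0 had an unadjusted p under 0.05. The smallest p belonged to spirit, a protease of the SPE branch, with signals of 394.2, 616.4 and 217.1 on the control arrays and 50.0, 108.0 and 259.1 on the cross arrays (adjusted p = 0.454). The groups of spirit overlapped, and cross replicates 1 and 2 lay in the background range. It was followed by snk, a protease of embryonic patterning, at 267 ± 51.7 and 371 ± 76.6 (SD, n = 3 each; adjusted p = 0.525 by limma). The other 5 genes of the spz family, which encode related cystine-knot ligands, were all measured, with a median of -0.50. All had a negative log2 difference, but that of spz3 was only -0.0011. Of these 5 genes, 2 were above background on every array, 0 had groups apart and 0 had an unadjusted limma p under 0.05. The smallest adjusted p values by limma were 0.550 for NT1, which was above background on 3 arrays, and 0.652 for spz5.

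Of 24 other serpin genes 23 were measured, 13 lower and 10 higher, with a median of -0.05. Groups were apart for 4 lower and 1 higher. An unadjusted limma p under 0.05 was reached by 2, both lower, against 8.16% of all probe sets. Spn77Bb had means of 36865 ± 4098 in control flies and 21515 ± 6455 in the cross (SD, n = 3 each; adjusted p = 0.354). Spn42De had signals of 208.2, 366.0 and 426.4 against 8.2, 9.5 and 161.6 (adjusted p = 0.360), and cross replicates 1 and 2 lay in the background range. The 2 peptidoglycan sensors of the Toll branch were not analysed here.

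Of 11 genes of the Toll receptor and its intracellular relay, all were measured, 6 lower and 5 higher, with a median of -0.08. Groups were apart for 2, both lower, and 0 had an unadjusted limma p under 0.05. The adaptor gene Myd88 came nearest, at 4079 ± 341 in control flies and 3128 ± 486 in the cross with groups apart (limma, adjusted p = 0.470). The kinase gene pll followed, at 2357 ± 336 and 1930 ± 187 with groups overlapping (adjusted p = 0.591, SD, n = 3 each). Of 21 peptide genes that Toll signalling induces, 11 were measured, 5 lower and 6 higher, with a median of 0.29. Groups were apart for 1 lower and 2 higher. At an unadjusted limma p under 0.05, 1 was lower, BomS2, and 1 higher, the antifungal peptide gene Mtk, against 11.0% of all probe sets. The Drosomycin gene Drs, on the same list, had a log2 difference of -0.08. The signals of BomS2 were 16679.5, 28461.9 and 15494.2 against 4680.8, 8603.1 and 5600.9. Those of Mtk were 738.5, 849.0 and 665.0 against 1725.4, 2314.9 and 1082.2. Neither gene's groups overlapped, and the 2 lay on opposite sides of their controls (adjusted p = 0.216 and 0.299). The labels do not name the transgene's peptide, and whether transgene mRNA was part of a peptide gene's signal was not tested. With a limma prior variance that follows the signal and is robust to outlying variances, which called 0.783% of all probe sets, BomS2 passed (adjusted p = 0.03, 3.19-fold lower) and Mtk, psh and GNBP2 did not (adjusted p = 0.117, 0.103 and 0.131). Without the dimmest 33.3% of probe sets, where 0.895% were called, psh and GNBP2 did not pass either (adjusted p = 0.0795 and 0.0901).

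**Figure D4:**
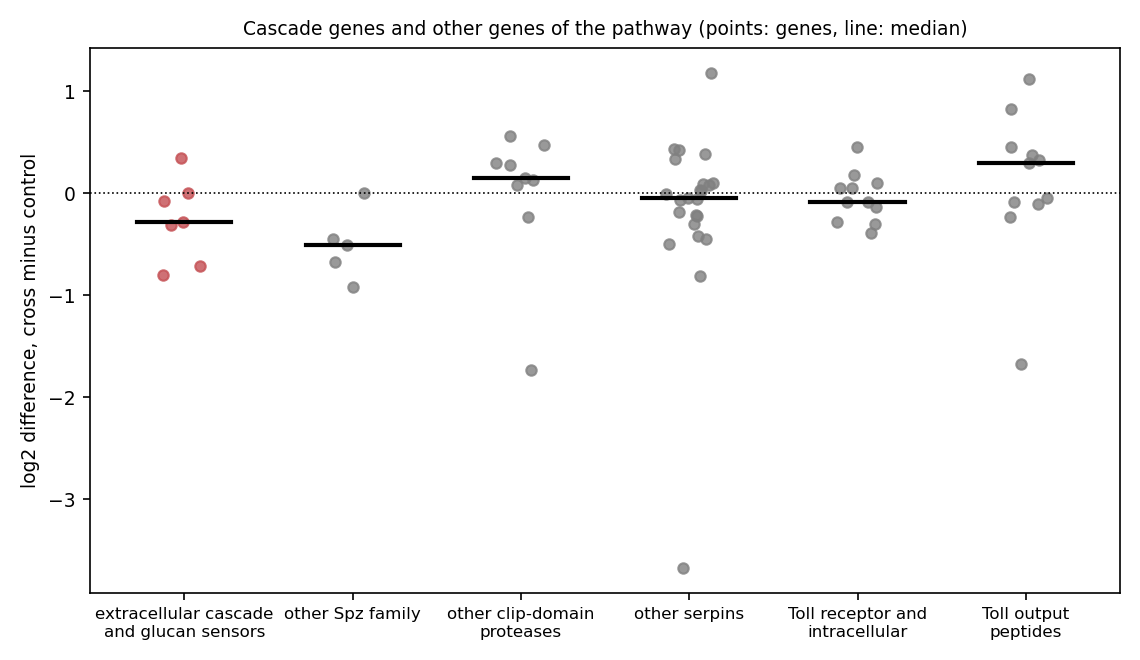
Log2 difference in signal, cross minus control, of each measured gene (points) in the cascade and in 5 other lists of the pathway, with the median of each list (line). The medians are -0.28 for the 7 cascade genes, -0.50 for the other spz family, 0.15 for other clip-domain proteases, -0.05 for other serpins, -0.08 for the receptor and intracellular genes and 0.29 for the induced peptides.

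Whole flies mix tissues, and fewer cells of a type cannot be told apart from less RNA per cell. Of 11 haemocyte genes, all were measured and above background on every array, and 10 were lower in the cross (median log2 difference -0.34). Their summed signal was 25148 to 26776 in the control and 18106 to 19926 in the cross, without overlap. Of the 11 genes, 4 were lower with groups apart, against 12.8% of all probe sets. An unadjusted limma p under 0.05 was reached by 2, both lower, against 8.16% of all probe sets. The brightest, the peroxidasin gene Pxn, was at 4813 ± 1072 and 2519 ± 202 (SD, n = 3 each; limma adjusted p = 0.248), and the scavenger receptor gene Sr-CI was 1.67-fold lower (adjusted p = 0.214). Of 10 fat body genes 6 were measured, 5 of them above background on every array. All 6 were lower (median -0.48), with 0 at an unadjusted limma p under 0.05. Groups were apart for 2 of the 6, Apoltp (1.10-fold lower) and Lpin (1.19-fold lower), against 12.8% of all probe sets apart and lower. The summed signal overlapped, at 73731 to 81297 and 63030 to 75886. The brightest, apolpp, was at 57758 ± 3055 and 55635 ± 5963 (SD, n = 3 each) and made up most of this sum. The part of these markers in the differences of psh and GNBP2 was not tested. Summed signals of 15 germline and yolk genes of females (529036 to 745213 and 424852 to 771776) and of 18 genes of the male reproductive tract (248905 to 342376 and 310197 to 500764) overlapped between groups, while most single genes of each list lay on 1 side. Of the 15 female genes, 11 were lower (median -0.18). An unadjusted limma p under 0.05 was reached by 2, vas and Cp18, both lower, against 8.16% of all probe sets. Groups were apart for the same 2, against 12.8% of all probe sets apart and lower. The signals of Cp18 on the cross arrays were 2251.8, 3231.2 and 21901.8, with replicate 3 far above the others. The brightest of the 15, the yolk protein gene Yp1, was at 97728 ± 8345 and 103745 ± 20316 (SD, n = 3 each). Of the 18 male genes, 16 were higher (median 0.29), 2 of them with groups apart, against 805 such among all 11982 measured genes. The brightest, Acp98AB, was at 53635 ± 12121 and 65455 ± 15802 (SD, n = 3 each). The ejaculatory duct peptide gene Dup99B was 2.09-fold higher and passed with the trended and robust prior (adjusted p = 0.0322), not with the constant prior (adjusted p = 0.214). The part of the reproductive genes in the differences of the cascade genes was not tested. The log2 signal at the 3′ end minus that at the 5′ end, a guide to RNA integrity, was 1.52 to 1.65 in the control and 1.42 to 1.72 in the cross for eIF-4a. For GAPDH it was 0.57 to 0.59 in the control and 0.5 to 0.74 in the cross, a wider spread in the cross.

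**Figure D5:**
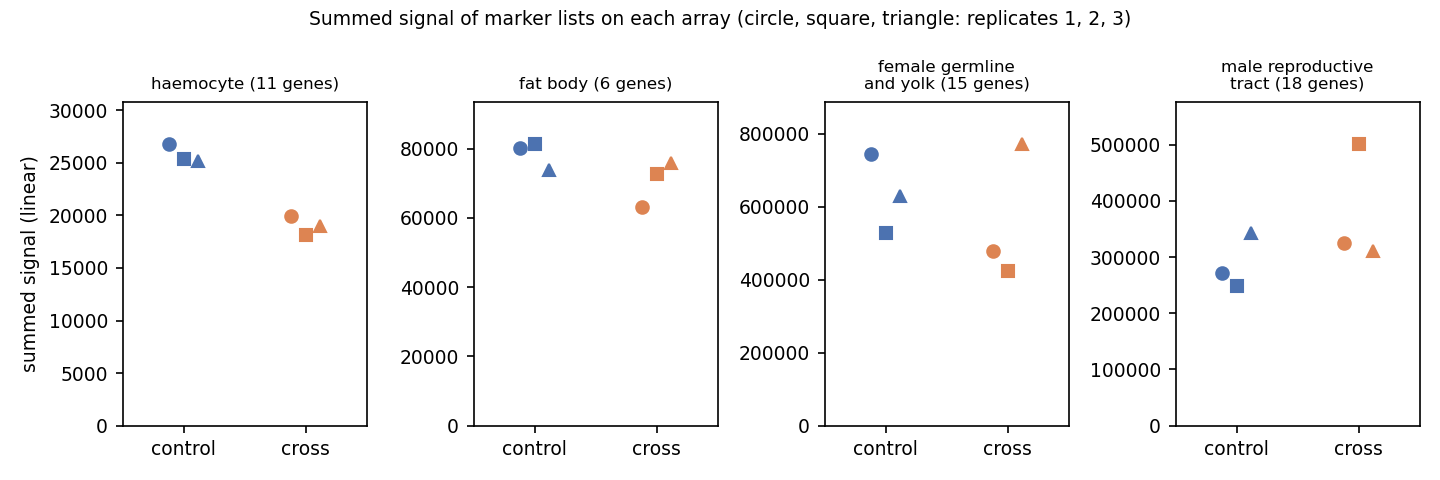
Summed linear signal of 4 marker lists on each control and cross array, each axis from 0. The haemocyte sums of the cross lie below all control sums, and the other 3 lists overlap between groups.

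All 7 genes lay well above the background of the arrays. The lowest signal of each was 4.92 to 35.0 times the background of its array, with GNBP2 nearest to it and SPE farthest. The pooled SD between replicates on the log2 scale was 0.135 to 0.368 for the 7 genes and had a median of 0.325 over all probe sets. The number of arrays, 6, limited the precision. Over the 6 arrays the median signal was 767 to 903, and pairs of arrays correlated at 0.946 to 0.958 inside a group and 0.945 to 0.953 across groups (log2 signals).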

How the data were processed

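Total RNA from 6 samples was labelled with biotin from 2 ug, per the labels' protocols. The values are linear probe set intensities deposited by the authors, and their mean without the top and bottom 2% was 2500.1 on each array. How probes were summarised and scaled is not given in the sources used here. Groups came from the sample titles.

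After 183 control probe sets were left out, 18769 remained, 13647 with 1 gene symbol in the platform annotation, 402 with several and 4720 with none. The brightest stood for its gene. RefSeq's Release 6 table gave current names and neighbours. The test on log2(signal + 1) was that of limma 3.58.1 (R 4.3.3, lmFit, eBayes, constant prior, 2-sided). It was also run on simulated data, with outcomes not reported here. The exact permutation test used scipy 1.17.1. Background was the 95th percentile of 27 Bacillus control probe sets on each array.

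The genes, lists and settings were chosen with earlier results of these data known. Named are all 9 genes, the 2 genes with the smallest p of each pathway list, the 3 genes most like GNBP2 and psh, and the brightest gene of each marker list. Hayan, CG10254, Drs, Sr-CI, Apoltp, Lpin, vas, Cp18 and Dup99B were named after their values were seen. Alternatives were a trended and robust prior, a replicate block, median centring, quantile scaling, dropping the dimmest 33.3%, a pseudocount of 16, the mean of a gene's probe sets, and leaving out each array.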

Additional observations from a re-analysis of the deposited data

How the results depend on the processing

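The number of the 7 genes called stayed at 0 under all 13 alternatives, the number lower in the cross was 4 to 6, and their median log2 difference was -0.38 to -0.17. The log2 difference of psh ranged from -0.77 to -0.61 and that of GNBP2 from -0.89 to -0.67, with an unadjusted p under 0.05 in all 13 for both. These settings reuse the same arrays, so they are not repeats of the comparison. GNBP3 (-0.47 to -0.17), nec (-0.43 to -0.15) and spz (0.21 to 0.45) also kept their sign in all 13. Leaving out 1 array gave -0.30 to 0.17 for SPE and -0.19 to 0.15 for grass. SPE was 0.17 without control replicate 2 and 0.03 without cross replicate 1. The sign of grass turned to -0.01 with quantile scaling, -0.19 without control replicate 3, -0.03 without cross replicate 1 and -0.08 without cross replicate 3. Over all probe sets, 147 were called with the trended and robust prior and 112 without the dimmest 33.3% of 18769, against 0 under the other alternatives in which probe sets were counted, and the cause was not tested. They were not counted where probe sets were averaged per gene. The replicate numbers were not shown to pair the arrays, since deviations of same-numbered arrays correlated at -0.0225, 0.000661 and -0.0972. With the number as a replicate block, the count over all probe sets was 0, psh had a log2 difference of -0.71 (adjusted p = 0.478) and GNBP2 of -0.80 (adjusted p = 0.465). Each of the 7 genes had 1 probe set, so the mean over the probe sets of a gene left its difference as it was.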
